A study of Mus musculus with 2 samples.

Results

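The genes described here encode the COPI and COPII vesicle coats, the cargo receptors that travel in them, and the Sec61 translocon. They were chosen by symbol in the deposited count table: genes named Sec13, Sec16, Sec22, Sec23, Sec24, Sec31, Sec61, Sec62 or Sec63 with any suffix, the numbered Tmed genes, the KDEL receptor genes, the Cop coatomer genes, Sar1, Lman1 and Lman2 genes, Mcfd2 and Surf4. This took 49 of the 18987 listed genes, all annotated as protein-coding. The pseudogene Tmed10-ps was left out, and Tmed6 and Tmed11 are not analysed here. The study sequenced RNA from RAW264.7 cells, a mouse macrophage-like line that forms osteoclasts when given the cytokine RANKL. The cells carried either a control shRNA (79399680 counts in the library) or an shRNA against Cpeb4 (119350322 counts), which encodes a cytoplasmic polyadenylation element-binding protein. Both cultures were plated in 12-well plates at 7500 cells per cm2 and received RANKL at 100 ng/ml after 24 h. They were collected on day 3 after RANKL. There was 1 library per group, so each difference compares these libraries, with no replicate check and no test, and the labels do not say whether either line was a clone or a pool.

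Secretory and membrane proteins enter the endoplasmic reticulum (ER) through the Sec61 channel. At ER exit sites the GTPase Sar1 recruits an inner coat of Sec23 and Sec24, which selects cargo, and an outer coat of Sec13 and Sec31, which shapes the COPII vesicle. The COPI coat, or coatomer, buds vesicles from the Golgi that bring receptors and escaped ER residents back. The p24 (Tmed) proteins, the KDEL receptors, the lectins Lman1 and Lman2 and the receptor Surf4 cycle between both organelles. Osteoclasts make and secrete large amounts of protease and acid hydrolase, which pass through this route.

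The promoters of several of these genes are shown first, since short elements bound by the ER stress factors ATF6 and XBP1 and by the CREB3 family are known from genes of this pathway. RefSeq promoters (GRCm38.p6, the assembly that mm10 names) from 250 bases before to 50 bases after the start were matched for 44 of the 49 genes, with 48 promoters in all. The 6 letters CCACGT, part of the unfolded protein response element, were searched on both strands and are in capitals below, together with the whole core of that element, TGACGTGG (or its complement CCACGTCA), where present. Each sequence ends just before the start. Kdelr3, Mcfd2 and Tmed3 were among the genes with the lowest ratios between the libraries, and Sec24b and Copg2 had the highest.
Kdelr3 (chr15:79516158-79516407, plus strand): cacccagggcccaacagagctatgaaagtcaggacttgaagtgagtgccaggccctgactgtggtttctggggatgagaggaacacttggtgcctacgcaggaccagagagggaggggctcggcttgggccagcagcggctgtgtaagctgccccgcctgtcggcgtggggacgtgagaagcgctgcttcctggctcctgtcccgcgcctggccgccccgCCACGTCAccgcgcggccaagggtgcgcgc
Mcfd2 (chr17:87265948-87266197, minus strand): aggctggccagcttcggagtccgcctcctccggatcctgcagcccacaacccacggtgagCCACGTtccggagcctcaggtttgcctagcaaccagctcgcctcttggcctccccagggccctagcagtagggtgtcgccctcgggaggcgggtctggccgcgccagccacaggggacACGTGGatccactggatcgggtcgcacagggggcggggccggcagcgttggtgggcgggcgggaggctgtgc
Tmed3 (chr9:89705044-89705293, minus strand): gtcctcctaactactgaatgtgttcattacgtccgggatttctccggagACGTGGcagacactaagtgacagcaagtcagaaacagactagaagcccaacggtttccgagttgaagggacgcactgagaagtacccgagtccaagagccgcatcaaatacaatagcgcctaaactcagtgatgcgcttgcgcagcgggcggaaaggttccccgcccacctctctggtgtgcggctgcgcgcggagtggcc
Sec24b (chr3:130060908-130061157, minus strand): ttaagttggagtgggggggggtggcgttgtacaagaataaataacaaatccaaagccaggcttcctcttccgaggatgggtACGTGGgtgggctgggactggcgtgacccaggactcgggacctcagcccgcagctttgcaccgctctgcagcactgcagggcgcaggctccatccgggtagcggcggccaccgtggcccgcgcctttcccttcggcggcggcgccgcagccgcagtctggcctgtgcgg
Copg2 (chr6:30896795-30897044, minus strand): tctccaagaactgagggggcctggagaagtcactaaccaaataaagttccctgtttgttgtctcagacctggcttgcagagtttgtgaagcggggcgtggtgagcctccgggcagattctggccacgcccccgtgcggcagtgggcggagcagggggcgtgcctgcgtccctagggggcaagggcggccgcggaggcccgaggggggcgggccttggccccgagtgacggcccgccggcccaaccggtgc

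The next lines give the last 60 bases before the start of 3 more genes that hold the longer core TGACGTGG.
Sec16b (chr1:157506736-157506795, plus strand): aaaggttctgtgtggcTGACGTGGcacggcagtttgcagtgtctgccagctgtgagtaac
Copb1 (chr7:114254681-114254740, minus strand): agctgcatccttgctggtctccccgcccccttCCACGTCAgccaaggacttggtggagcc
Sec24d (chr3:123267436-123267495, plus strand): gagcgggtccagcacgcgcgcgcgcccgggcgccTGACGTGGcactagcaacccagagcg

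CCACGT was found in 22 of the 48 promoters (45.8%), against 11.6% of 11175 promoters of genes at a mean of at least 1 CPM and 8.31% of all 32851 promoters in the table. The core TGACGTGG, which holds CCACGT on its other strand and so is counted in both, was found in 6 of the 48 (12.5%), those of Copb1, Copb2, Kdelr3, Sec16b, Sec23a and Sec24d. It was found in 0.877% and 0.676% of the other promoter sets. The ER stress element, CCAAT and CCACG separated by 9 bases, was found in 0 of the 48 and in 39 of all promoters, and its second form, ATTGG and CCACG separated by 1 base, in 0 of the 48 and in 12 of all. CCAAT alone was found in 41.7% of the 48 and in 38.5% of promoters of genes past the same filter. A match is a string of letters in this window and does not show that a factor binds there.

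With Cpeb4 shRNA the coat, receptor and translocon genes were lower as a group, mostly by less than 2-fold. Levels are given as CPM (counts scaled to library size) after TMM scaling, and genes at a mean of at least 1 CPM passed the filter. Of the 49 genes, 47 passed, and 43 of these had a log2 ratio of Cpeb4 shRNA over control below 0, where 47.5% of all 12086 genes past the filter lay below 0. Under total-count scaling 40 lay below 0, where 36.1% of all genes did. A total of 11 were at least 2-fold lower, against 11.8% of all genes, and 0 were at least 2-fold higher, against 14.6% of all genes. At least 1.5-fold lower were 30 of the 47, against 22.1% of all genes. The median log2 ratio was -0.73, a 1.65-fold lower level, and the median of all genes was 0.05. Members lay closer together than genes at large: their interquartile range was 0.483 log2 units, from -0.93 to -0.45, beside 1.13 for all genes. Kdelr3 and Copz2 passed the filter only through the control library, in which they were higher, so their place among the lower genes was set in part by the filter. The 44 members at a mean of at least 10 CPM had a median of -0.72, with 9 at least 2-fold lower. Of all 8869 genes at that level, 907 were at least 2-fold lower, and their median was 0.01. Total-count scaling moves all log2 ratios up by 0.23, the median of all genes included. It left 6 of the 47 genes at least 2-fold lower, against 8.6% of all genes, so this count lay nearer to its background than the 11 under TMM. Kdelr3 and Copz2, which passed the filter only through the control, were among these 6. The others were Sec16b, Tmed3, Mcfd2 and Tmed9. The distance between the median of the coat, receptor and translocon genes and that of all genes was -0.78, and a change of scaling factor does not alter it.

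**Figure D1:**
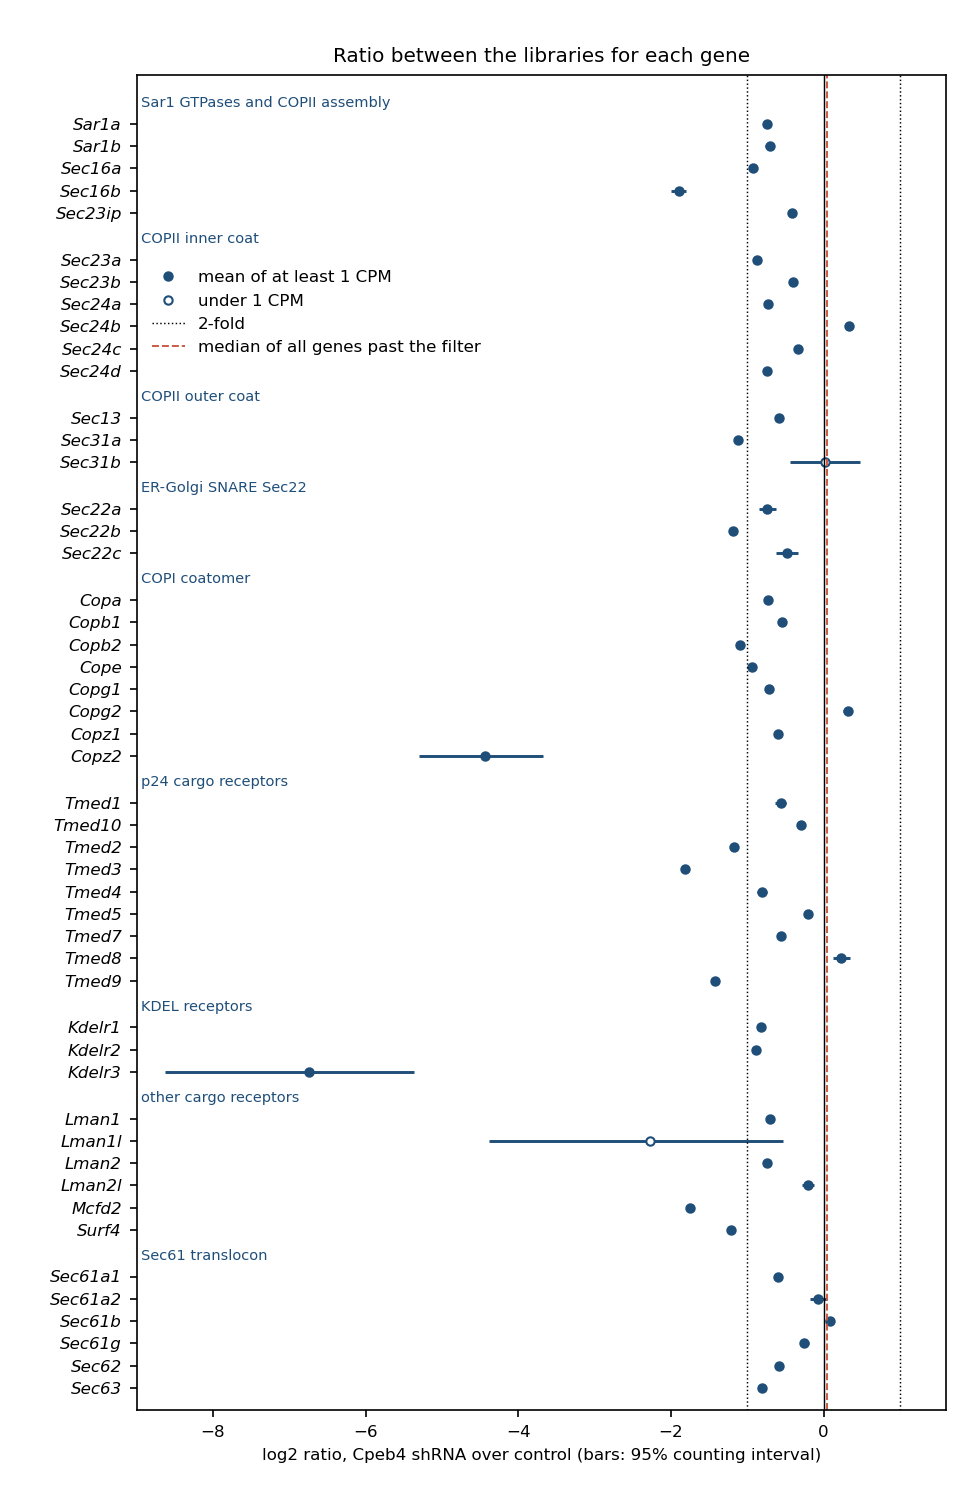
Log2 ratio of Cpeb4 shRNA over control for each of the 49 genes by role (x axis, TMM scaling), with 95% counting intervals as bars; open points did not pass the filter of 1 CPM, dotted lines mark 2-fold and the dashed line the median of all genes (0.05). Of the 47 filled points 43 lie left of 0 (40 under total-count scaling), and Kdelr3 and Copz2 lie farthest left, with the widest intervals among them.

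The targeted gene was lower where the labels place the knockdown: Cpeb4 had 25270 counts (345 CPM) with control shRNA and 13491 counts (104 CPM) with Cpeb4 shRNA. All 8 osteoclast markers examined (Ctsk, Acp5, Calcr, Itgb3, Mmp9, Dcstamp, Ocstamp and Oscar) were at least 2-fold lower as well, with a median log2 ratio of -2.39, and together they had 46320 CPM with control shRNA and 9059 CPM with Cpeb4 shRNA. Of 8 macrophage markers, 6 passed the filter, with a median of -0.29 and a summed level of 4153 and 2582 CPM over all 8. Cd68 (-1.04), Csf1r (-0.61), Itgam (-0.44) and Ptprc (-0.13, and 0.10 under total-count scaling) lay below 0, and Cd14 (0.35) and Lyz2 (0.998) above. The markers that did not pass the filter went in opposite directions, Adgre1 at 2.25 and Fcgr1 at -3.03. Markers of fibroblasts or osteoblasts (5 of 8 listed), lymphoid cells (2 of 6) and granulocytes or mast cells (0 of 6) did not reach the filter, and their summed levels were 1.097 CPM at most. In bulk RNA, fewer cells of a type and less RNA per cell cannot be told apart, and the part of the osteoclast share in the values below was not tested.

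COPII assembly genes were lower in each case. Sar1a, encoding the more abundant form of the GTPase that starts the coat, had 12581 counts (172 CPM) with control shRNA and 13344 (103 CPM) with Cpeb4 shRNA, a log2 ratio of -0.74 (95% counting interval -0.77 to -0.70). Sar1b, its paralog, had 4949 counts (67.6 CPM) and 5352 counts (41.4 CPM), at -0.71 (-0.76 to -0.65). The intervals of both paralogs overlap, and Sar1b took 28.2% of Sar1 counts with control shRNA and 28.6% with Cpeb4 shRNA. Divided by transcript length, these shares were 46.1% and 46.6%, so the paralogs then stood closer together. Sec16a, the large scaffold of ER exit sites, had 228 and 119.4 CPM (-0.93, -0.96 to -0.90). Sec16b, its shorter paralog, had 2548 counts (34.8 CPM) and 1206 counts (9.32 CPM), at -1.90 (-2.00 to -1.80), a 3.73-fold lower level. Sec16b was the gene of this group past 2-fold, and its share of Sec16 counts was 13.3% with control shRNA and 7.24% with Cpeb4 shRNA. Sec23ip, whose product binds Sec23 at exit sites, had the smallest difference of the group, at 80.2 and 60.1 CPM (-0.42).

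The inner COPII coat was within 2-fold for all 6 genes, with a median of -0.56, and the paralogs differed in direction. Sec23a, encoding the subunit that activates the Sar1 GTPase, had 73.8 and 40.4 CPM (log2 ratio -0.87, -0.93 to -0.82). Sec23b had 91.5 and 69.3 CPM (-0.40, -0.45 to -0.36). Sec23b was the more abundant paralog in both libraries, per kilobase of transcript too (32.9 and 24.9 CPM per kb, against 18.0 and 9.83 for Sec23a), and its share of Sec23 counts was 55.4% with control shRNA and 63.2% with Cpeb4 shRNA. Sec24 proteins hold the cargo-binding sites. Sec24c, with the most counts of the family, had 250.7 and 198 CPM (-0.34, -0.37 to -0.31). Sec24d had 157 and 93.4 CPM (-0.75, -0.78 to -0.71), and Sec24a 87.1 and 52.7 CPM (-0.73, -0.78 to -0.68). Sec24b went the other way, with 4389 counts (59.9 CPM) with control shRNA and 9731 counts (75.2 CPM) with Cpeb4 shRNA, at 0.33 (0.28 to 0.38). Sec24a and Sec24b are close paralogs, as are Sec24c and Sec24d, so the difference in direction lay within a pair.

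The outer COPII coat was lower. Sec13, a beta-propeller subunit shared with the nuclear pore, had 129 and 85.6 CPM (log2 ratio -0.59, -0.63 to -0.55). Sec31a, the rod-forming subunit, had 32724 counts (447 CPM) and 26681 counts (206 CPM), at -1.12 (-1.14 to -1.09), and -0.88 under total-count scaling, which is within 2-fold. Per kilobase of transcript the 2 genes stood at 95.2 and 106 CPM per kb with control shRNA and at 63.3 and 48.8 with Cpeb4 shRNA, so their order was not the same. Sec31b did not pass the filter, with 64 and 114 counts.

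The Sec22 genes encode or resemble a SNARE that fuses ER-Golgi carriers. Sec22b, the functional SNARE, had 8647 counts (118 CPM) with control shRNA and 6725 counts (52.0 CPM) with Cpeb4 shRNA, at -1.18 (-1.23 to -1.14) and -0.95 under total-count scaling. Sec22a had 16.6 and 9.97 CPM (-0.74), and Sec22c 10.0 and 7.16 CPM (-0.48). Both of these were within 2-fold, and Sec22b took 81.6% of Sec22 counts with control shRNA and 75.2% with Cpeb4 shRNA.

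The major coatomer genes were all lower, from 1.465-fold (Copb1) to 2.13-fold (Copb2), and the minor paralogs Copg2 and Copz2 lay outside this range. Of 8 genes, 7 had a log2 ratio below 0, against 47.5% of all genes, and the median was -0.72. Copz2 and Copb2 were at least 2-fold lower, as were 11.8% of all genes. Copz2 passed the filter only through the control. Copa, the alpha subunit that binds retrieval signals, had 37005 counts (505 CPM) and 39380 counts (304 CPM), at -0.73 (-0.75 to -0.71). Copb2, the beta-prime subunit that also binds these signals, had 331 and 155 CPM (-1.09, -1.12 to -1.07), and -0.86 under total-count scaling. Copb1 (beta) had 221 and 151 CPM (-0.55), Cope (epsilon) 160.0 and 83.7 CPM (-0.94) and Copz1 (zeta) 124 and 81.8 CPM (-0.60). The delta subunit gene Arcn1, which the choice by symbol does not take, had 606 and 403 CPM (-0.59, -0.61 to -0.57). These 6 subunits and Copg1 thus lay between -1.09 and -0.55, a band that covered all major coatomer subunits. Per kilobase of transcript the members among them were lowest for Copg1 (53.1 CPM per kb) and highest for Cope, then Copa (109), with control shRNA and ranged from 32.3 (Copg1) to 65.8 (Copa) with Cpeb4 shRNA.

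The minor coatomer paralogs stood apart in opposite directions. Copg1, encoding the major gamma subunit, had 16102 counts (220 CPM) and 17326 counts (134 CPM), at -0.72 (-0.75 to -0.68). Copg2 had 3504 counts (47.8 CPM) with control shRNA and 7700 counts (59.5 CPM) with Cpeb4 shRNA, at 0.31 (0.26 to 0.37). Copg2 took 17.9% of gamma subunit counts (exact binomial interval 17.3% to 18.4%) with control shRNA and 30.8% (30.2% to 31.3%) with Cpeb4 shRNA, a share that no scaling changes. Copg2 overlaps Mest on the other strand, which had 6 and 10 counts. Copz2, the minor zeta subunit gene, had 184 counts (2.51 CPM) with control shRNA and 15 counts (0.116 CPM) with Cpeb4 shRNA, at -4.44 (-5.30 to -3.68), 21.7-fold lower. With a pseudocount of 1 CPM its log2 ratio was -1.65. Copz2 overlaps the microRNA gene Mir152 on the same strand. Copz2 took 1.98% of zeta subunit counts with control shRNA and 0.142% with Cpeb4 shRNA, so the zeta pool was almost all Copz1 in both.

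**Figure D2:**
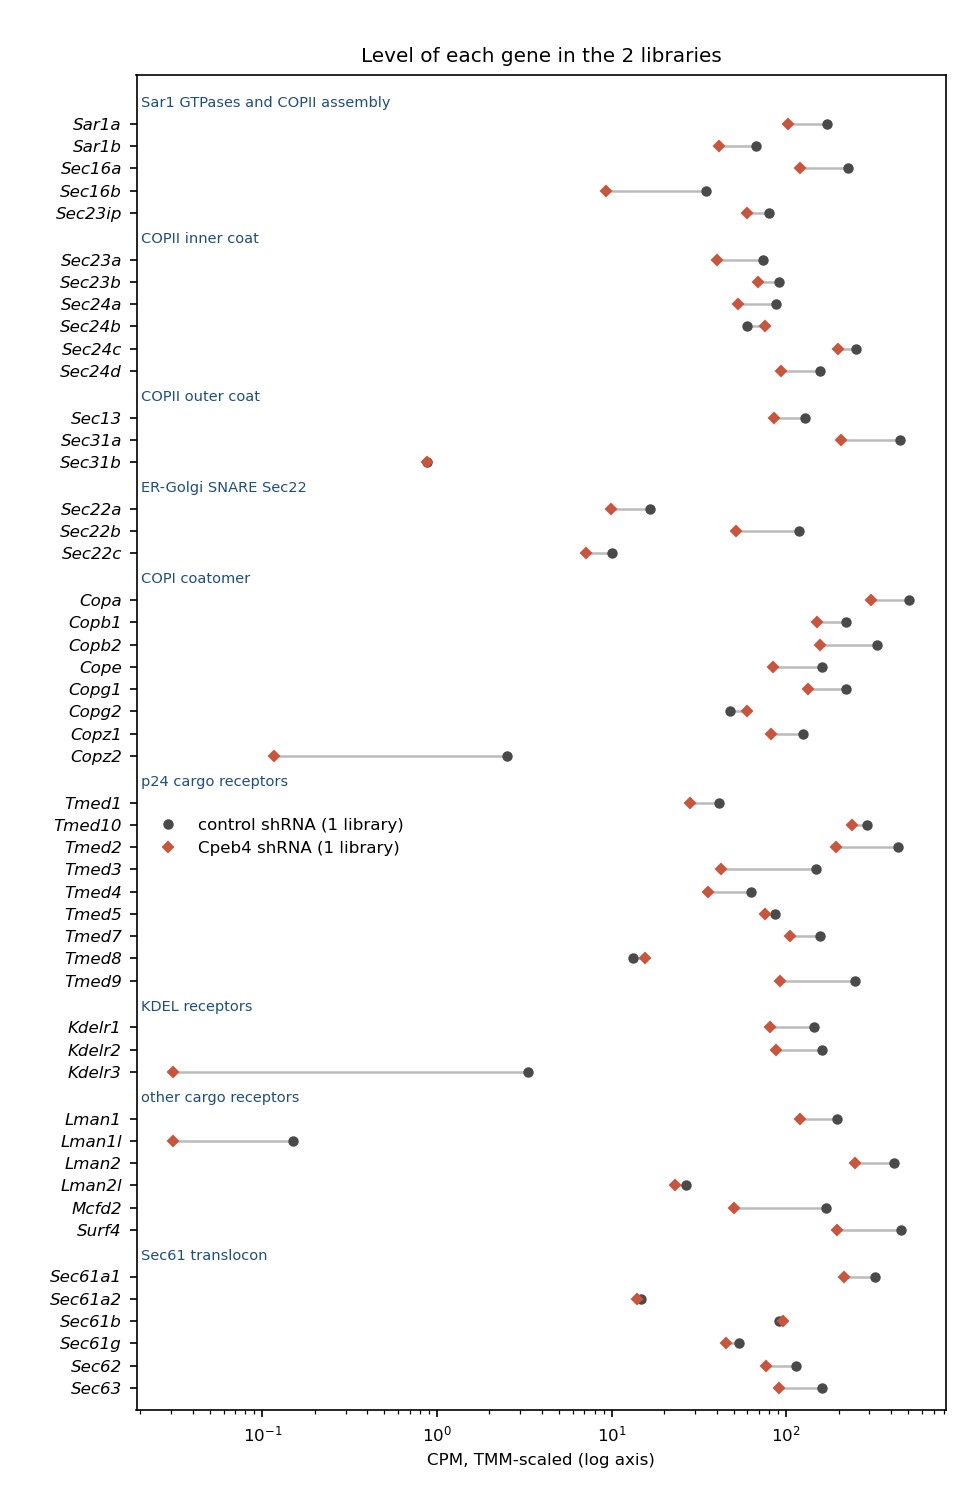
CPM of each gene (x axis, log scale, TMM scaling) in the control shRNA library (circles) and the Cpeb4 shRNA library (diamonds), 1 library each, by role. Most genes have the diamond to the left, by most for Kdelr3 (3.30 and 0.031 CPM) and Copz2 (2.51 and 0.116 CPM); of the 47 genes past the filter Copg2, Sec24b, Tmed8 and Sec61b have the diamond to the right, the points of Sec31b (0.874 and 0.881 CPM), which did not pass it, nearly coincide, and Tmed5, Sec61a2 and Lman2l join them under total-count scaling.

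The p24 family was led by lower Tmed3 and Tmed9. These small membrane proteins form complexes of alpha, beta, gamma and delta members that recruit cargo and coat. Of 9 genes, 8 lay below 0 (47.5% of all genes did) and 3 were at least 2-fold lower (11.8% of all genes were). The gene above 0, Tmed8, was not placed among the alpha, beta, gamma or delta members here. Under total-count scaling Tmed5 moved above 0 and Tmed2 came within 2-fold. Tmed3, a gamma member, had 10910 counts (149 CPM) with control shRNA and 5476 counts (42.3 CPM) with Cpeb4 shRNA, at -1.82 (-1.86 to -1.77), 3.52-fold lower. Tmed9, an alpha member, had 18083 counts (247 CPM) and 11901 counts (92.0 CPM), at -1.43 (-1.46 to -1.39). Tmed2, the single beta member, had 31929 counts (436 CPM) and 25034 counts (193 CPM), at -1.17 (-1.20 to -1.15). Tmed10, the single delta member, had 21383 counts (292 CPM) and 30726 counts (237 CPM), at -0.30 (-0.32 to -0.27). Tmed2 and Tmed10, whose products pair in one complex, thus differed: Tmed2 was highest of the family per kilobase with control shRNA (210 CPM per kb, with Tmed10 at 197), and Tmed10 was highest with Cpeb4 shRNA (160.2, with Tmed2 at 93.3). The pseudogene Tmed10-ps had 850 and 965 counts, and reads may be divided between it and Tmed10.

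Within the gamma subfamily the make-up was different in the 2 libraries. Tmed3 took 34.4% of the counts of Tmed1, Tmed3, Tmed5 and Tmed7 (33.9% to 35.0%) with control shRNA and 16.9% (16.5% to 17.3%) with Cpeb4 shRNA. Tmed5, with 6325 counts (86.4 CPM) and 9732 counts (75.2 CPM), was at -0.20 (0.03 under total-count scaling) and took 19.97% and 29.97% of the subfamily. Tmed7 had 156 and 105 CPM (-0.56) and Tmed1 41.4 and 28.1 CPM (-0.56). Tmed7 overlaps Ticam2 on the same strand, which had 21 and 305 counts. In the alpha subfamily Tmed4, at 62.8 and 35.9 CPM (-0.81), took 20.3% of alpha counts with control shRNA and 28.1% with Cpeb4 shRNA. Tmed8, whose product carries the GOLD domain of the family, had 974 counts (13.3 CPM) and 2016 counts (15.6 CPM), at 0.23 (0.12 to 0.34).

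**Figure D3:**
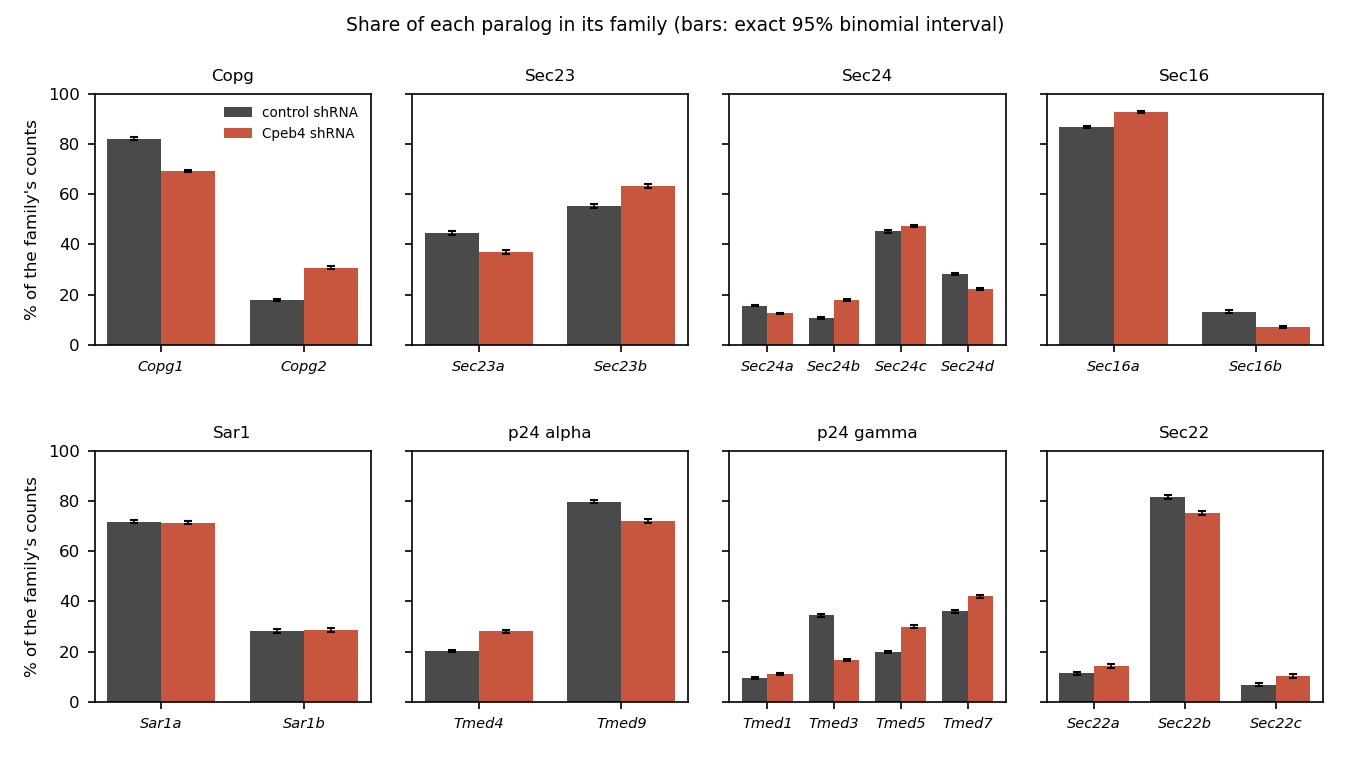
Share of each paralog in the counts of its family (y axis, %) in the control shRNA library (dark bars) and the Cpeb4 shRNA library (red bars), with exact 95% binomial intervals. Copg2, Sec23b, Sec24b, Tmed4 and Tmed5 take a larger share with Cpeb4 shRNA, Sec16b and Tmed3 a smaller one, and both Sar1 shares differ by under 1 percentage point.

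KDEL receptors bind the C-terminal KDEL signal of escaped ER chaperones in the Golgi and return them by COPI. Kdelr1 had 10514 counts (144 CPM) with control shRNA and 10489 counts (81.1 CPM) with Cpeb4 shRNA, at -0.82 (-0.86 to -0.79). Kdelr2 had 11802 counts (161 CPM) and 11300 counts (87.3 CPM), at -0.88 (-0.92 to -0.85). Both major receptors were lower by nearly the same factor, and they stood close together per kilobase of transcript, at 89.8 (Kdelr1) and 88.1 (Kdelr2) CPM per kb with control shRNA and at 50.7 and 47.8 with Cpeb4 shRNA. Kdelr3 had 242 counts (3.30 CPM) and 4 counts (0.031 CPM), at -6.74 (-8.63 to -5.37), the lowest ratio among the 47 genes. It took 1.07% of KDEL receptor counts with control shRNA and 0.018% with Cpeb4 shRNA. Genes at 4 counts were more frequent with Cpeb4 shRNA (364) than genes at 3 (282) or 5 (205), so a size that rests on 4 counts is uncertain. With a pseudocount of 1 CPM its log2 ratio was -2.06. Hspa5, encoding an abundant ER chaperone that these receptors retrieve, had 8045 and 943 CPM (-3.09).

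Other cargo receptors were lower. Of the 5 past the filter, 2 were at least 2-fold lower under TMM scaling, against 11.8% of all genes. Under total-count scaling Lman2l lay above 0 and Surf4 within 2-fold. Mcfd2 encodes the soluble partner with which the lectin Lman1 exports coagulation factors V and VIII. It had 12428 counts (170 CPM) with control shRNA and 6546 counts (50.6 CPM) with Cpeb4 shRNA, at -1.75 (-1.79 to -1.70), 3.35-fold lower. Lman1 had 14337 counts (196 CPM) and 15570 counts (120.3 CPM), at -0.70 (-0.74 to -0.67). The 2 partners were thus unequal: Mcfd2 stood at 83.3 CPM per kb and Lman1 at 41.9 with control shRNA, and at 24.8 and 25.7 with Cpeb4 shRNA. Surf4, a receptor for soluble cargo, had 33137 counts (452 CPM) and 25240 counts (195 CPM), at -1.21 (-1.24 to -1.19), and -0.98 under total-count scaling. Lman2 (VIP36), a lectin that cycles through the early secretory pathway, had 417 and 249.4 CPM (-0.74). Lman2l had 26.7 and 23.1 CPM (-0.20, and 0.03 under total-count scaling). Lman1l did not pass the filter, with 11 and 4 counts.

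Translocon genes had a median of -0.42, and 0 of 6 were past 2-fold (11.8% of all genes were lower and 14.6% higher). Below 0 lay 5, and 4 under total-count scaling, against 47.5% and 36.1% of all genes. Sec61a1, encoding the channel itself, had 23775 counts (325 CPM) with control shRNA and 27808 counts (215 CPM) with Cpeb4 shRNA, at -0.59 (-0.62 to -0.57). Sec61b, encoding the small beta subunit, had 6625 counts (90.5 CPM) and 12416 counts (96.0 CPM), at 0.09 (0.04 to 0.13). Sec61g, encoding the gamma subunit, had 53.7 and 45.1 CPM (-0.25). The 3 subunits of 1 channel thus had ratios from -0.59 to 0.09. Sec63, which couples the channel to Hspa5, had 160 and 91.3 CPM (-0.81), and Sec62, its partner for short precursors, 114 and 76.3 CPM (-0.58). Sec61a2, the minor channel paralog, had 14.71 and 14.03 CPM (-0.07, -0.18 to 0.04, and 0.17 under total-count scaling).

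Genes that work with the coats had log2 ratios below 0 in most cases, beside 47.5% of all genes under TMM and 36.1% under total-count scaling, where small ratios change side. The counts at least 2-fold lower in these lists are to be read against 11.8% of all genes under TMM, near which most of them lay, and 8.6% under total-count scaling. Among 15 regulators of COPI, ARF GTPases included, 14 lay below 0 under either scaling, 2 were at least 2-fold lower and the median was -0.76. The lowest were Arf4, a GTPase of the early Golgi, at 332 and 114 CPM (-1.54), and Arfgap3, a GTPase-activating protein that binds coatomer, at 34.4 and 12.4 CPM (-1.47). Arfgef1 was highest (0.09), followed by Arfgap2 (-0.28). Of 16 SNARE genes, 14 lay below 0 and 2 were at least 2-fold lower (12 and 0 under total-count scaling), with a median of -0.63. The SNARE genes Bet1 and Bet1l were lowest (-1.13 and -1.11), and the SNARE-recycling ATPase gene Nsf (0.47) and Bnip1 (0.35) highest.

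Of 16 COPII regulators, 14 lay below 0 and 2 were at least 2-fold lower (13 and 1 under total-count scaling), with a median of -0.46. Yipf5 was at 76.2 and 27.2 CPM (-1.49) and Rab1a, encoding a GTPase of ER-Golgi transport, at 348 and 173 CPM (-1.01). Ankrd28 (0.37) and Csnk1d (0.04) were highest. Of 28 tether genes, 25 lay below 0 (20 under total-count scaling), 3 were at least 2-fold lower and 1 at least 2-fold higher, with a median of -0.41. The golgin genes Golgb1 and Golga2 were lowest, at 327 and 131 CPM (-1.32) and at 193 and 81.5 CPM (-1.24). Zw10 was the one past 2-fold upward, at 19.5 and 46.0 CPM (1.24); its product serves both ER tethering and the mitotic kinetochore. Trappc5 followed at 0.61. Another list of 15 genes held export and retrieval receptors together with other ER proteins. Of these, 13 lay below 0 (10 under total-count scaling), 1 was at least 2-fold lower and 1 higher, and the median was -0.36. Erlec1 (-1.16) and Yif1a (-0.97) were lowest, and Arv1 (1.05, from 176 and 645 counts) and Cnih1 (0.29) highest. Of 23 translocon partners, 19 lay below 0 and 3 were at least 2-fold lower (18 and 2 under total-count scaling), with a median of -0.49; Hspa5 (-3.09) and the translocon-associated Ssr3 (-1.26) were lowest, and the tail-anchor insertion genes Get4 (0.23) and Get1 (0.22) highest.

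Coats that act after the Golgi, and the exocyst, a tether, were examined in the same way. Of 41 genes of clathrin, its adaptors, retromer and exocyst, 0 were past 2-fold in either direction (11.8% of all genes were lower and 14.6% higher). Below 0 lay 29 of them, against 47.5% of all genes, and the median was -0.19, beside 0.05 for all genes. Under total-count scaling 20 lay below 0, against 36.1% of all genes, and 2 were at least 2-fold higher (20.6% of all genes were). The median was then 0.04, beside 0.28 for all genes. The sign of the median thus depended on the scaling, and under both scalings it lay below that of all genes. Cltb, a clathrin light chain gene, had 110.1 and 59.1 CPM (-0.90) and Exoc6b 204 and 111 CPM (-0.88). The adaptor complex 4 genes Ap4m1 (0.86) and Ap4e1 (0.79) were highest. The difference between these genes and the COPI and COPII genes has no test in this design.

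**Figure D4:**
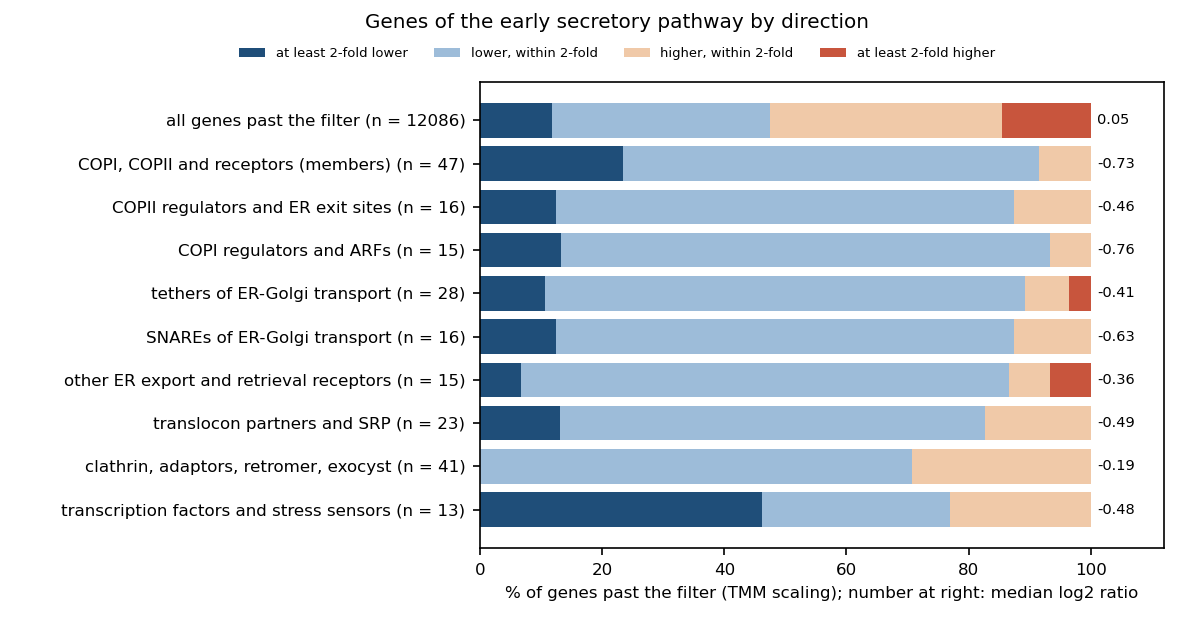
Share of genes past the filter (x axis, %) at least 2-fold lower, lower or higher within 2-fold, and at least 2-fold higher under TMM scaling, with the median log2 ratio at the right. The COPI, COPII and receptor genes have a median of -0.73 (-0.49 under total-count scaling) and 0 genes at least 2-fold higher. Genes of clathrin, adaptors, retromer and exocyst have a median of -0.19, and all genes 0.05 (0.04 and 0.28 under total-count scaling).

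Factors known to control this pathway were listed with them. The 13 genes past the filter encode transcription factors, ER stress sensors and the proteases Mbtps1 and Mbtps2. Of these, 10 lay below 0 and 3 above, with 8 below 0 under total-count scaling. At least 2-fold lower were 6, against 11.8% of all genes, and 0 were at least 2-fold higher, against 14.6%. Under total-count scaling 5 were at least 2-fold lower (without Creb3l2), against 8.6% of all genes. Creb3l1 passed the filter only through the control. Creb3 had 96.6 and 31.4 CPM (-1.62) and Creb3l2 189 and 92.7 CPM (-1.03). Creb3l1 and Creb3l4 were both at -1.28, the former from 107 and 78 counts and the latter from 273 and 199 counts. Ddit3 (-3.57) and the sensor kinase gene Eif2ak3 (-1.82) were lowest. Xbp1 had 193 and 139 CPM (-0.48) and Atf6 310 and 293 CPM (-0.08, and 0.15 under total-count scaling). Atf4 was at -0.41 and Ern1 at -0.19 (0.04 under total-count scaling). Atf6b was highest, at 93.9 and 129 CPM (0.46), followed by Mbtps1 (0.43) and Mbtps2 (0.16). These counts do not tell spliced from unspliced Xbp1 messages.

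The promoter letters and the ratios can be set side by side. Of 42 genes past the filter with a promoter in the table, 21 held CCACGT and had a median log2 ratio of -0.75, with 8 at least 2-fold lower. These 8 were Kdelr3 and Copz2, which passed the filter only through the control library, Copb2 and Sec31a, which came within 2-fold under total-count scaling, and Mcfd2, Sec16b, Tmed3 and Tmed9. The 21 without it had a median of -0.58, with 2 at least 2-fold lower; under total-count scaling the counts were 6 and 0. Over all genes, the 1205 with CCACGT had a median of -0.05 and the 7592 without it 0.04. Their shares at least 2-fold lower were close, at 12.4% and 11.7% under TMM. Under total-count scaling 109 of the 1205 and 655 of the 7592 were at least 2-fold lower. The difference between members with and without the letters was not tested. Among the genes printed above, Kdelr3, Mcfd2, Tmed3 and Sec16b hold the letters and were at least 2-fold lower. Copb1 (-0.55) and Sec24d (-0.75) hold them and were lower by less than 2-fold. Sec24b holds them and was higher, and Copg2, without them, was higher. Several of these genes were printed because their ratios were among the lowest or highest.

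CPEB proteins bind cytoplasmic polyadenylation elements in 3′ UTRs. The letters TTTTAT or TTTTAAT (U for T in the RNA) were found in the 3′ UTR of 1 annotated transcript per gene for 35 of the 47 genes (74.5%), against 59.7% of 10531 genes past the filter with a 3′ UTR. The 35 had a median log2 ratio of -0.71 and a median 3′ UTR of 1306 bases, and the 12 without a match had a median of -0.84 and 472.5 bases. Over all genes the medians were 0.07 with the letters and -0.04 without, at median 3′ UTRs of 1638 and 429 bases. Coat, receptor and translocon genes with and without the letters thus both had medians below 0.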

How the data were processed

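The authors deposited 1 table of whole-number counts per gene with 1 column per library. HISAT2 and build mm10 are named per the submitters' processing notes; HISAT2's version, the counting tool, annotation and strand handling: not given in the sources used here. Every listed gene had at least 1 count in both libraries. Neighbours on either strand overlap 27 of the 49 genes, and reads there may be shared.

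Counts were scaled with TMM in edgeR 4.0.16 (R 4.3.3; factors 0.922 and 1.08), and CPM uses the resulting library sizes. Genes at a mean of at least 1 CPM were kept. Counting intervals are exact Clopper-Pearson 95% intervals of the 2 counts; they cover counting error only, and PCR copies are not independent molecules. A count of 3 equals 0.041 CPM with control shRNA and 0.023 CPM with Cpeb4 shRNA. Of 43 members with over 1000 counts in both libraries, the widest interval was 0.228 log2 units. Levels per kilobase use the length of the principal GENCODE M21 transcript. With 1 library per group no test was made. On simulated counts for this comparison over 18987 genes, 100% of 200 genes changed 3-fold or 8-fold passed 2-fold and 0 unchanged genes did. The simulation held counting error only, without variation between cultures or lines. It checks the calculation and says nothing on how often such differences would recur.

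Members and lists were chosen with earlier results of these data known. All members may be named, with Arcn1, Cpeb4 and, from each pathway list, the 2 highest and 2 lowest genes and all listed factors. Neighbouring genes, the pseudogene and the macrophage markers were named after their values were seen. Alternatives were other scalings (total count, DESeq2 1.42.0, upper quartile, 20 reference genes), filters, a pseudocount of 1 CPM, thresholds of 1.5-fold and 4-fold, thinning, and removal of the GC and length trend.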

Additional observations from a re-analysis of the deposited data

How the results depend on the processing

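No paired analysis was possible because there was 1 library for each shRNA and nothing was tested. The count of genes at least 2-fold lower, 11, was 6 under total-count scaling (beside 8.6% of all genes), where Copb2, Sec22b, Sec31a, Surf4 and Tmed2 came within 2-fold; it was 30 at a 1.5-fold threshold and 2 at 4-fold (Kdelr3 and Copz2), as those thresholds set. It ranged from 9 to 12 under the other alternatives. The count at least 2-fold higher was 0 under every alternative run. The median log2 ratio of -0.73 was -0.49 with total-count scaling and -0.78 with 20 reference genes. Single genes changed side of 0 under total-count scaling only (Tmed5, Sec61a2 and Lman2l), and no gene past 2-fold did. Over all genes, 55.4% of those past 2-fold were higher under TMM and 70.5% under total-count scaling. Depth limits Kdelr3, Copz2, Sec31b and Lman1l, with under 250 counts in either library.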
